A study of Mus musculus with 4 samples.

Results

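The plasma cells described here are the 128 cells that the authors' cell table places in cluster 6, out of 22569 cells in the table, matched by library and barcode to the deposited count matrices. RNA molecules were counted as unique molecular identifiers (UMIs) in single CD45+ leukocytes, obtained by sorting from Peyer's patches, the lymphoid follicles lining the small bowel. Donor animals were female wild-type Taconic mice that either carried segmented filamentous bacteria (SFB-positive) or lacked them (SFB-negative), and no ages are stated. SFB are commensal bacteria that adhere to epithelial cells of the ileum. The series title names switching to IgA and IgG2b as a subject of the study, so the comparison asks which antibody classes and programmes the plasma cells of the 2 groups carry. Cells of 5 mice were pooled per group, and 6000 sorted cells were loaded per library with 4000 targeted. The labels do not state if both replicates of a group came from different pools, so p-values measure only the spread between libraries, which may be technical. The cluster held 24 of 3408 table cells in SFB-positive replicate 1 and 68 of 7380 in SFB-positive replicate 2, against 6 of 4050 in SFB-negative replicate 1 and 30 of 7731 in SFB-negative replicate 2. These were 0.704% and 0.921% of the table cells in SFB-positive and 0.148% and 0.388% in SFB-negative libraries, shares that also depend on which barcodes the authors kept.

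Plasma cells are the end stage of the B cell lineage and secrete antibody. Class switching joins the rearranged variable segment of the heavy chain to another constant gene, so that 1 cell makes IgM, an IgG or IgA. At mucosal surfaces IgA is assembled with the J chain into dimers that epithelial cells carry into the gut lumen. Secretion on this scale relies on an enlarged endoplasmic reticulum, whose chaperones and degradation machinery are induced by the unfolded protein response through the transcription factor XBP1.

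The depth of the cells differed by library. The median plasma cell had 7333 and 21902 UMIs in SFB-positive replicates 1 and 2, and 5832 and 10744 in SFB-negative replicates 1 and 2, so SFB-positive replicate 2 was the deepest. The summed counts of the cluster were 176241 and 1549679 UMIs in the SFB-positive libraries and 43251 and 319156 in the SFB-negative ones. The 4 libraries shared between 0 and 40 barcodes per pair over all deposited barcodes, and 0 barcodes of the cluster recurred in the cluster of another library. Cluster 3, the deepest of the other clusters, had medians of 4144 and 17122 UMIs in SFB-positive and 4184.5 and 7359 in SFB-negative libraries. Replicate 1 libraries were counted with another Cell Ranger version than replicate 2 libraries, per the file headers, and genes such as Bach2, a B cell transcription factor, had 0 UMIs in both replicate 1 libraries against 510 UMIs in SFB-positive and 171 UMIs in SFB-negative replicate 2. Comparisons are therefore given library by library.

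Of the 6 markers that named the cluster, Slpi was found in a minority of its cells, Prg2 in 51.6% of them and the others in most. Jchain, the joining chain of IgA dimers and IgM pentamers (chr5:88519809-88527891 in GRCm38, minus strand), had UMIs in 126 of 128 cells. Its level in CPM of all UMIs (UMIs per 1000000) was 50885 and 29640 in SFB-positive replicates 1 and 2 and 62704 and 20802 in SFB-negative replicates 1 and 2, whereas the other table cells had 326 and 157 in SFB-positive and 184 and 106 in SFB-negative libraries. Xbp1 had UMIs in 121 cells and Derl3, a component of the channel that returns misfolded proteins to the cytosol, in 107. Prg2, the eosinophil granule major basic protein (chr2:84980461-84983632, plus strand), had UMIs in 66 cells and Slpi, a secreted protease inhibitor, in 48, so these markers did not extend to the whole cluster. By library, Prg2 was found in 33.3% and 66.2% of cells in SFB-positive and 33.3% and 36.7% in SFB-negative replicates 1 and 2. Because the authors' clustering used the genes of these cells, the levels describe the cluster and carry no test. The 20 leading genes also held Ccr10, the receptor for the epithelial chemokine CCL28, Fkbp11, a secretory pathway isomerase, Edem1, which directs misfolded glycoproteins to degradation, and Txndc5, a disulfide isomerase. Apoe, apolipoprotein E, was among them, with 9844 and 5053 CPM of all UMIs in SFB-positive and 14474 and 7131 in SFB-negative plasma cells. Ctla4, an inhibitory receptor best known from T cells, had UMIs in 101 of 128 cells, whereas the T cell receptor genes Trac and Trbc2 and the Cd3 genes summed to 28.3 and 67.3 CPM in SFB-positive and 0 and 35.1 CPM in SFB-negative plasma cells. Here and from here on, unless all UMIs are named, CPM are UMIs per 1000000 non-antibody UMIs, a scale on which the antibody genes themselves do not lower the others.

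Defining markers of several other cell types were at or near 0, but not every list was. Of 6 eosinophil markers 5, Epx and Siglecf included, had 0 UMIs in all 4 libraries, while Prg3, a relative of Prg2, had 4 and 81 UMIs in SFB-positive and 0 and 2 in SFB-negative libraries. All 3 neutrophil markers had 0 UMIs in all 4 libraries, and the mast cell list had 1 UMI in all, of Kit. The macrophage and dendritic list of 6 genes summed to 764 and 642 CPM in SFB-positive and 540 and 346 CPM in SFB-negative plasma cells. Nearly all of this was Cst3, a secreted protease inhibitor (54 and 529 UMIs in SFB-positive and 10 and 78 in SFB-negative libraries), while Lyz2, C1qa and Csf1r had 0 UMIs in all libraries. The plasmacytoid dendritic list summed to 467 and 355 CPM in SFB-positive and 378 and 281 CPM in SFB-negative plasma cells, with 1 UMI of its defining marker Siglech in all. The epithelial list summed to 70.7 and 141 CPM in SFB-positive and 432 and 118 CPM in SFB-negative plasma cells. Most of that was Epcam, an epithelial adhesion molecule, which had UMIs in 54 of 128 cells and was above the other table cells in each library, whereas Krt8 and Krt19 had 0 UMIs in all. The part of these genes in the results was not tested. B cell genes were still present: Cd79a, a signalling chain of the B cell receptor, had 7058 and 5847 CPM in SFB-positive plasma cells and 5079 and 3276 in SFB-negative ones. Pax5, the factor that maintains B cell identity, had 0 and 67.3 CPM in SFB-positive and 0 and 65.8 in SFB-negative libraries. A minority of cells held little antibody RNA: under 10% of UMIs came from antibody genes in 1 of 24 and 6 of 68 SFB-positive cells, and in 1 of 6 and 11 of 30 SFB-negative cells. Their part in the results was not tested, except that summed chaperone levels are also given without them.

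The classes of antibody RNA differed in composition between the groups. Each cell was called by its most abundant heavy-chain constant gene. Ighg2b, the IgG2b constant gene (chr12:113302965-113307933, minus strand), was dominant in 10 of 24 and 30 of 68 SFB-positive cells, against 0 of 6 and 2 of 30 SFB-negative cells. The count of 0 of 6 allows a share of up to 50%, so the smallest library is imprecise. The mean share was 42.9% ± 1.73 in SFB-positive libraries and 3.33% ± 4.71 in SFB-negative libraries (SD, n = 2 each). The groups did not overlap, and the difference was 41.7 points within replicate 1 and 37.5 points within replicate 2. With 2 libraries against 2, an exact two-sided permutation test cannot give a p below 0.333, which is the value it gave here (p = 0.333).

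**Figure D1:**
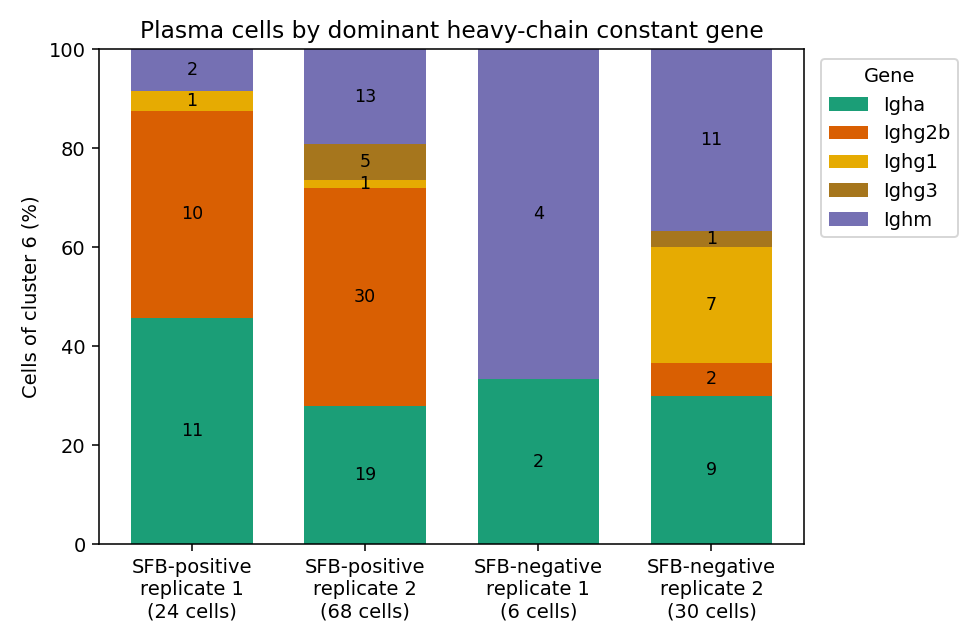
Share of plasma cells (%, y axis) by dominant heavy-chain constant gene in each library (x axis), with the number of cells printed in each bar segment. Ighg2b cells number 10 and 30 in the SFB-positive libraries, against 0 and 2 in the SFB-negative ones.

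By cell shares, IgM ran the other way. Ighm, the constant gene of unswitched IgM (chr12:113418558-113422730, minus strand), was dominant in 2 of 24 and 13 of 68 SFB-positive cells and in 4 of 6 and 11 of 30 SFB-negative cells, a mean share of 13.7% ± 7.63 in SFB-positive and 51.7% ± 21.2 in SFB-negative libraries (SD, n = 2 each). These shares did not overlap either, and the exact permutation test again gave its smallest possible value (p = 0.333). IgA cells, in which Igha (chr12:113254830-113260236, minus strand) was dominant, were 11 of 24 and 19 of 68 SFB-positive cells and 2 of 6 and 9 of 30 SFB-negative cells. Their shares of 45.8% and 27.9% in SFB-positive libraries enclosed those of 33.3% and 30.0% in SFB-negative libraries (exact permutation p = 1). The IgG1 gene Ighg1 was dominant in 1 and 1 SFB-positive cells and in 0 and 7 SFB-negative cells, and Ighg3 in 0 and 5 against 0 and 1. The 7 Ighg1 cells came from 1 library, SFB-negative replicate 2, and without it the direction of the Ighg1 difference turned round (2.82 points higher in SFB-positive). Over all constant-gene UMIs, which weight a cell by its antibody output, Ighg2b took 28.03% and 51.8% in SFB-positive and 0% and 7.14% in SFB-negative plasma cells, where 0 of 9028 UMIs allows up to 0.0332% by counting error alone. The Ighm share of those UMIs was 11.7% and 9.39% in SFB-positive and 7.60% and 29.5% in SFB-negative libraries. These overlap, and within replicate 1 SFB-positive was higher. The Igha share of those UMIs was 59.1% and 30.2% in SFB-positive and 92.4% and 48.4% in SFB-negative libraries, lower in SFB-positive within both replicate numbers, but the mean of the cells' own Igha shares was 5.61 points higher in SFB-positive libraries.

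Most cells carried 1 class. In 119 of 128 cells at least 20 constant-gene UMIs were present and at least 80% of them came from the dominant gene. A second constant gene reached 20% in 6 cells: 3 cells of SFB-positive replicate 2 held Ighm and Ighg2b, and 3 cells of SFB-negative replicate 2 held Ighg1 with Ighm, Ighg2b with Igha, and Igha with Ighm. In the 3 mixed Ighm and Ighg2b cells the dominant gene took 50.5%, 52.1% and 53.2% of constant-gene UMIs. Whether these are doublets was not tested, no doublet caller was run, and a doublet step before deposit is not stated.

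The replicate 1 libraries also counted antibody tags on the cell surface, which give a measure of class that does not use RNA. In SFB-positive replicate 1 the IgA tag had a median of 9 UMIs in 11 cells of Igha class (range 1 to 26) and a median of 0 in 13 cells of other classes (range 0 to 19). Setting aside 3 cells with high counts of the isotype control tags, the ranges were 1 to 14 in 10 Igha cells and 0 to 2 in 11 other cells. In SFB-negative replicate 1 the IgA tag had 19 and 26 UMIs in the 2 Igha cells and 0 to 2 in the 4 Ighm cells. Igha cells thus held the high tag counts, apart from 2 Igha cells with 1 and 2 tag UMIs. The IgM tag had 0 or 1 UMIs in each Ighm cell of both libraries, and the panel held no IgG2b tag. The tags therefore give no check of the IgM and IgG2b calls. The tag against syndecan 1 (CD138), the usual surface marker of plasma cells, had 0 to 3 UMIs per cell in SFB-positive replicate 1, with 11 UMIs in 24 cells. Without the 3 cells with high control tags it had 0 to 1, with 3 UMIs in 21 cells. In SFB-negative replicate 1 it had 0 to 1, with 1 UMI in 6 cells. Means over the other table cells, with none set aside, were 0.253 UMIs in SFB-positive and 0.295 in SFB-negative replicate 1. Most plasma cells had none. Sdc1, the gene of syndecan 1, had 32 UMIs in SFB-positive and 5 in SFB-negative replicate 1.

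**Figure D2:**
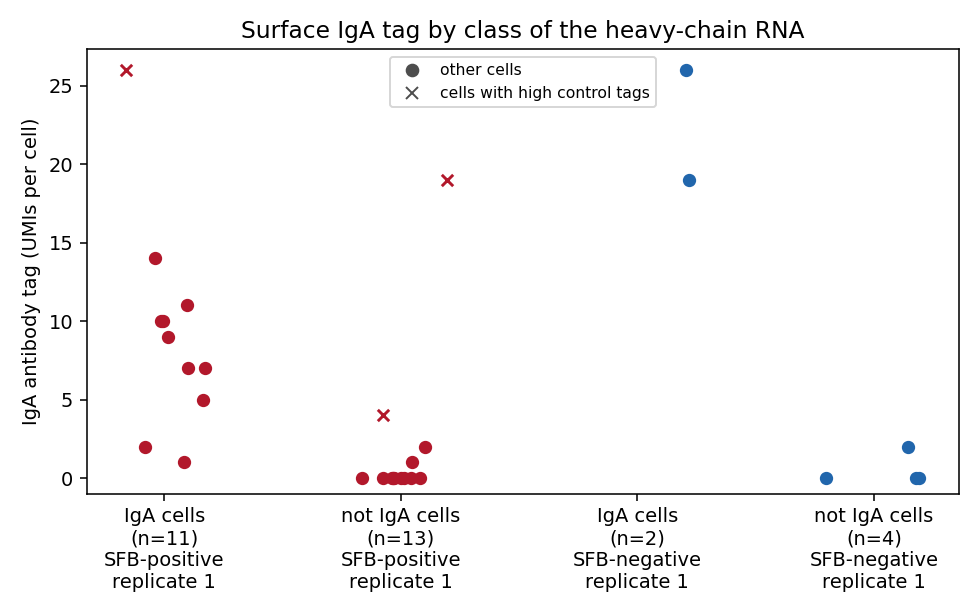
UMIs of the IgA surface tag per cell (y axis) for cells whose dominant heavy-chain gene is Igha and for the other plasma cells, in the replicate 1 library of each group; each point is a cell and crosses mark the 3 cells with high control tags. Igha cells without high control tags reach 14 UMIs in SFB-positive and 26 in SFB-negative replicate 1, and the other cells reach 2 in both.

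Light chains were mostly kappa. Lambda constant genes exceeded Igkc in 3 of 24 and 5 of 68 SFB-positive cells and in 1 of 6 and 5 of 30 SFB-negative cells. Lambda took 18.1% and 8.89% of light-chain constant UMIs in SFB-positive and 0.728% and 21.8% in SFB-negative libraries (exact permutation p = 1). A heavy variable segment could be called, with at least 5 variable UMIs and 80% of them from 1 segment, in 40 of 68 SFB-positive and 17 of 30 SFB-negative replicate 2 cells, and in 0 cells of both replicate 1 libraries. The 57 called cells used 35 different segments. Ighv1-47 was the most frequent, in 5 cells, all of them in SFB-negative replicate 2, and Ighv3-6 followed with 4 and Ighv1-26 with 3, all in SFB-positive replicate 2. Ighv1-78 and Ighv1-15 were also called in 3 cells each, in both groups. They had 2 and 1 cells in SFB-positive replicate 2 and 1 and 2 in SFB-negative replicate 2. Among light chains, Iglv1 was called in 11 cells, found in all 4 libraries, and Igkv1-117 in 7. Of those 11 cells 3, all in replicate 1 libraries, held mostly kappa constant UMIs, so the lambda segment goes against their light chain and the call is doubtful there. All 24 cells with both a heavy and a light call held a different pair. The rest of the 128 cells lacked 1 or both calls, so a pair recurring among them would not be seen. They include Ighg1 cells of SFB-negative replicate 2 that share Ighv1-47 and have no light call. Variable segments have near-identical copies among which reads may be split, so these names are uncertain.

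IgA and IgG plasma cells differed in more than their antibody genes. This comparison was added after the data were seen: UMIs were summed by class within each library, antibody genes were left out, and the 3 libraries with at least 3 cells of both classes were fitted with the library as a term. It used 11, 19 and 9 IgA cells and 11, 36 and 10 IgG cells of SFB-positive replicates 1 and 2 and SFB-negative replicate 2. With edgeR's quasi-likelihood test and Benjamini-Hochberg adjustment at 0.05, 10 genes were higher in IgA cells (0.579% of 1727 tested) and 5 were lower (0.29%), together 0.869%. In all, 157 genes had an unadjusted p under 0.05. Without SFB-positive replicate 2, which holds most of the cells, 0 genes passed in edgeR, with 37 of 750 at an unadjusted p under 0.05. Without SFB-negative replicate 2, 20 were higher and 19 lower, and 11 of the 15 were kept. Without SFB-positive replicate 1, 9 were higher and 1 lower, and 9 of the 15 were kept.

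Ccr10 (chr11:101172997-101175443, minus strand), the receptor that guides IgA plasma cells to epithelia making CCL28, had the greatest log2 difference of the genes higher in IgA cells. It had UMIs in 9 of 11 and 14 of 19 IgA cells of SFB-positive replicates 1 and 2, in both IgA cells of SFB-negative replicate 1 and in 3 of 9 of SFB-negative replicate 2. In IgG cells it had UMIs in 0 of 11, 2 of 36 and 2 of 10 cells of SFB-positive replicates 1 and 2 and SFB-negative replicate 2, and in IgM cells in 3 of 30 over all libraries. Cluster 3, at median depths of 4144 to 17122 UMIs per cell, had Ccr10 UMIs in 7 of 1900 cells. In CPM, IgA cells had 850, 294 and 106 and IgG cells 0, 4.86 and 28.9 in the same 3 libraries, so IgA cells were higher in each. The fitted log2 difference, IgA minus IgG, was 4.73 (SE 0.67, edgeR adjusted p = 0.0236).

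Tnfrsf17, which encodes BCMA, the receptor for the plasma cell survival factor APRIL (chr16:11313812-11320074, plus strand), followed the same split. IgA cells had UMIs in 5 of 11, 12 of 19, 2 of 2 and 2 of 9 cells of SFB-positive replicates 1 and 2 and SFB-negative replicates 1 and 2, and IgG cells in 1 of 57 over all libraries. Its log2 difference was 4.41 (SE 0.65, edgeR adjusted p = 0.0236). Tnfrsf13b, the related receptor TACI, had a log2 difference of 1.98 and missed the limit (edgeR adjusted p = 0.0696). Cluster 0, the largest cluster of the table, had Tnfrsf17 UMIs in 0 of 9664 cells and cluster 3 in 5 of 1900.

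Jchain was higher in IgA cells, at 160260, 101615 and 52772 CPM against 93205, 41752 and 13690 in IgG cells of the same libraries (log2 difference 1.40, SE 0.22, edgeR adjusted p = 0.0236). The call was lost when only Ighg2b cells stood for IgG (edgeR adjusted p = 0.0895), with the stricter class call (0.0504), without SFB-negative replicate 2 (0.115) and without SFB-positive replicate 2 (0.818). Pycard, the inflammasome adaptor ASC, was higher in IgA cells at 800, 724 and 408 CPM against 120, 134 and 28.9 in IgG cells (log2 difference 2.80, SE 0.36, edgeR adjusted p = 0.0227). Vim, the filament protein vimentin, had 150, 209 and 231 CPM in IgA cells and 0, 14.6 and 57.8 in IgG cells. Tmem176b, a membrane channel protein, Fosb, an AP-1 factor, Hdac9, a histone deacetylase, Alcam, an adhesion molecule, and the long non-coding RNA 4833407H14Rik completed the 10 genes higher in IgA cells, with log2 differences of 2.01 to 3.92. IgM cells were not in the test. In SFB-positive and SFB-negative replicate 2, Alcam had 827 and 339 CPM in IgM cells and 843 and 532 in IgA cells. Hdac9 had 292 and 236 in IgM cells and 515 and 284 in IgA cells. Pycard and Tmem176b were low in these IgM cells, at 75.6 and 73.6 and at 48.6 and 14.7 CPM. In SFB-positive replicate 1, Hdac9 had 0 UMIs in IgA and IgG cells, and Alcam had 1 in IgA and 0 in IgG cells. The differences of these 2 genes thus rest on the replicate 2 libraries. 4833407H14Rik had 0 UMIs in IgA and IgG cells of SFB-negative replicate 2, so its difference rests on the SFB-positive libraries.

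Of the 5 genes lower in IgA cells, Fth1, the ferritin heavy chain that stores iron, had 1776, 1086 and 1330 CPM in IgA cells of SFB-positive replicates 1 and 2 and SFB-negative replicate 2, against 3253, 2491 and 4772 in IgG cells (log2 difference -1.25, SE 0.20, edgeR adjusted p = 0.0236). Lipc, hepatic lipase, had 25.0, 4.26 and 35.5 CPM in IgA cells and 321, 177 and 231 in IgG cells. Ltb, the lymphotoxin beta chain that organises lymphoid tissue, had 150, 25.5 and 177 in IgA cells and 763, 97.2 and 752 in IgG cells. Ltb and Tmem176b passed in 0 of the 3 fits that leave out a library (edgeR adjusted p = 0.0547 and 0.0566 at the lowest), and Fth1 and Gm8879 did not pass without SFB-positive replicate 1 (edgeR adjusted p = 0.0589 and 0.152). The predicted gene Gm8879 had a log2 difference of -2.51 and the non-coding RNA Gm32554 had 0 UMIs in all IgA cells of the 3 libraries against 51 in IgG cells, at least 10.4-fold lower against a floor of 3 counts over the IgA cells. Of the 3 fits that leave out a library, Gm32554 was tested in 1 and did not pass there (edgeR adjusted p = 0.500). Gm8879 (chr5:11127634-11132487, plus strand) and Gm32554 (chr5:11165537-11181825, minus strand) lie 33049 bases apart.

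**Figure D3:**
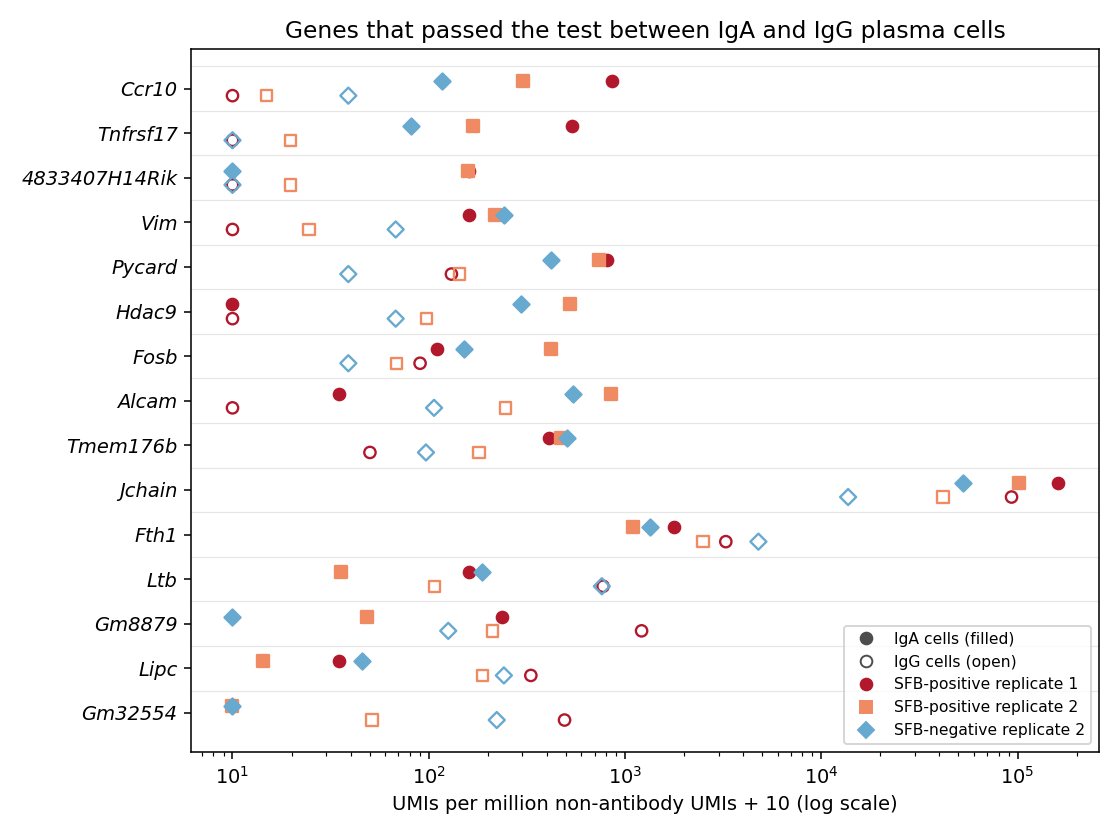
Levels of the 15 genes that passed the test between IgA cells (filled symbols) and IgG cells (open symbols), as CPM plus 10 on a log axis, with a symbol for each of the 3 libraries. Filled symbols lie right of the open symbol of the same library for Ccr10, Tnfrsf17 and Pycard, and left of it for Fth1, Ltb and Lipc.

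Several groups of genes leaned one way between the classes without members past the limit. Over all 1727 genes tested, 885 had positive IgA minus IgG values and the median log2 was 0.01. All 7 tested MHC class II genes, which present antigen to T cells, had negative values with a median log2 of -0.60, and 0 of 7 passed. The nearest was H2-Aa, at 1901, 545 and 993 CPM in IgA cells and 3253, 1084 and 2391 in IgG cells (edgeR adjusted p = 0.0501). Of 5 tested B cell identity genes 1 had a positive value (median log2 -0.58) and 0 passed. Not every library shared that lean. The summed level of all 12 listed B cell identity genes was higher in IgA cells of SFB-negative replicate 2 (6563 CPM, IgG cells 4782 CPM). It was lower in IgA cells of SFB-positive replicate 1 (3901 CPM, IgG cells 18754 CPM) and replicate 2 (4182 CPM, IgG cells 11415 CPM). Of 24 tested translocation and glycosylation genes of the endoplasmic reticulum 22 had positive values (median log2 0.37) and 0 passed. The folding and degradation lists leaned less, with 16 of 22 positive (median log2 0.12) and 7 of 11 positive (median log2 0.11), and 0 passed. Of the folding genes, Txndc5 had 2176, 1648 and 639 CPM in IgA cells and 241, 197 and 424 in IgG cells (edgeR adjusted p = 0.0547). Ero1lb went the other way (log2 difference -1.33). Edem1, a degradation gene, had 1926, 1141 and 550 against 643, 590 and 222 (edgeR adjusted p = 0.0541). Itgb7, the integrin chain that binds the gut addressin, had 350, 162 and 0 CPM in IgA cells and 120, 60.7 and 19.3 in IgG cells and did not pass.

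Prg2 was concentrated in a subset of IgG cells. At least 10 UMIs of Prg2 were found in 2 of 41 IgA cells, 25 of 57 IgG cells and 4 of 30 IgM cells, and the highest cell held 193. The 25 IgG cells were 3 of 11 and 20 of 36 in SFB-positive replicates 1 and 2 and 2 of 10 in SFB-negative replicate 2. Cluster 3 had 0 of 1900 cells at that level. Over libraries, Prg2 had 25.0, 226 and 177 CPM in IgA cells of SFB-positive replicates 1 and 2 and SFB-negative replicate 2, against 6184, 2607 and 424 CPM in IgG cells. The IgA minus IgG log2 difference of -3.69 did not pass (SE 1.05, edgeR adjusted p = 0.453), but passed with the stricter call of the class, at -4.26 (edgeR adjusted p = 0.0372), and over the 6 alternatives the adjusted p ranged over 0.0372 to 0.999. Prg2 was not uniform within IgG2b either: 16 of 30 Ighg2b cells of SFB-positive replicate 2 had at least 10 UMIs, the others between 0 and 7, and the 2 Ighg2b cells of SFB-negative replicate 2 had 0 UMIs. Slpi reached 10 UMIs in 8 of 41 IgA, 14 of 57 IgG and 0 of 30 IgM cells, all of them in replicate 2 libraries, which were deeper. Apoe, a lipid carrier protein also made by macrophages, was uneven between the classes as well, with 750, 1827 and 6812 CPM in IgA cells of SFB-positive replicates 1 and 2 and SFB-negative replicate 2 and 63409, 13539 and 9256 CPM in IgG cells of the same libraries. Its log2 difference of -2.98 did not pass (SE 1.86, edgeR adjusted p = 0.799).

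**Figure D4:**
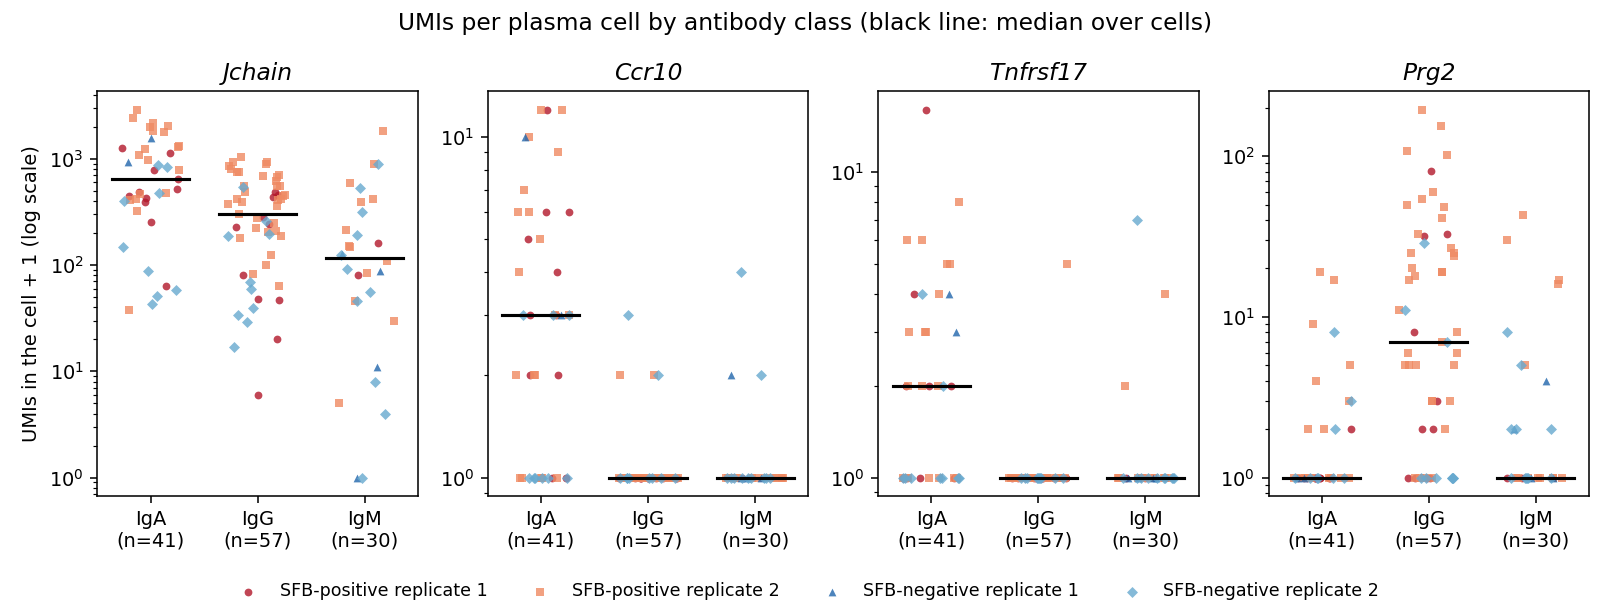
UMIs per plasma cell plus 1 on a log axis for Jchain, Ccr10, Tnfrsf17 and Prg2, by antibody class; each symbol is a cell, its shape and colour give the library, and the black line is the median over cells. The median Ccr10 count is 2 in IgA cells and 0 in IgG and IgM cells, whereas the median Prg2 count is 6 in IgG cells and 0 in IgA and IgM cells.

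IgM plasma cells had less Jchain than IgA cells in each library, at 41143 and 26396 CPM in SFB-positive and 20978 and 33040 CPM in SFB-negative IgM cells, against 160260 and 101615 CPM in SFB-positive and 315903 and 52772 CPM in SFB-negative IgA cells. Set against IgG cells the order was not fixed: IgM cells were lower in both SFB-positive libraries and higher in SFB-negative replicate 2, where IgG cells had 13690 CPM. These levels were not tested. Il10, an inhibitory cytokine known from some plasma cells, was singled out after its values were seen: 98 of its 106 UMIs lay in IgM cells, and 95 of these in 3 IgM cells of SFB-positive replicate 2, 1 of which held 66. Il10 UMIs were present in 11 of 128 plasma cells, in 33 of 1900 cluster 3 cells and in 9 of 9664 cluster 0 cells. Division was rare: Mki67, a proliferation marker, reached 10 UMIs in 3 of 128 cells, all in SFB-positive replicate 2, with 101 UMIs in an Ighg2b cell and 28 and 10 in Ighm cells. The Ighm cell with 28 is 1 of the cells with a near equal share of Ighg2b.

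The secretory machinery was abundant in every library. Hspa5 (BiP), the main chaperone of the endoplasmic reticulum, had 2801 and 7140 CPM in SFB-positive replicates 1 and 2, against 1729 and 2535 in SFB-negative replicates 1 and 2. Hsp90b1 (GRP94), a chaperone of antibody chains, had 3451 and 6984 in SFB-positive and 1999 and 3473 in SFB-negative libraries. Mzb1, a co-chaperone that helps antibody assembly, had 9166 and 5692 in SFB-positive and 4971 and 3732 in SFB-negative libraries. The 23 folding genes together took 34217 and 36417 CPM in SFB-positive and 20855 and 19279 in SFB-negative plasma cells, so the groups did not overlap. This was also so within IgA cells, at 37264 and 33538 in SFB-positive (11 and 19 cells) and 20434 and 19548 in SFB-negative libraries (2 and 9 cells). IgM cells had 34085 and 34456 (2 and 13 cells) against 21167 and 23970 (4 and 11 cells). Cells with at least 10% antibody UMIs had 35103 and 38731 against 20219 and 24886. Cells under 10% overlapped, at 13037 and 15316 (1 and 6 cells) against 34038 and 11903 (1 and 11 cells). The part of class in the difference was not tested. Other summed lists did not overlap between the groups either. Among them, heat shock and B cell identity genes were higher in SFB-positive libraries and type I interferon response genes were lower. In the test over all genes no single folding gene passed the limit.

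**Figure D5:**
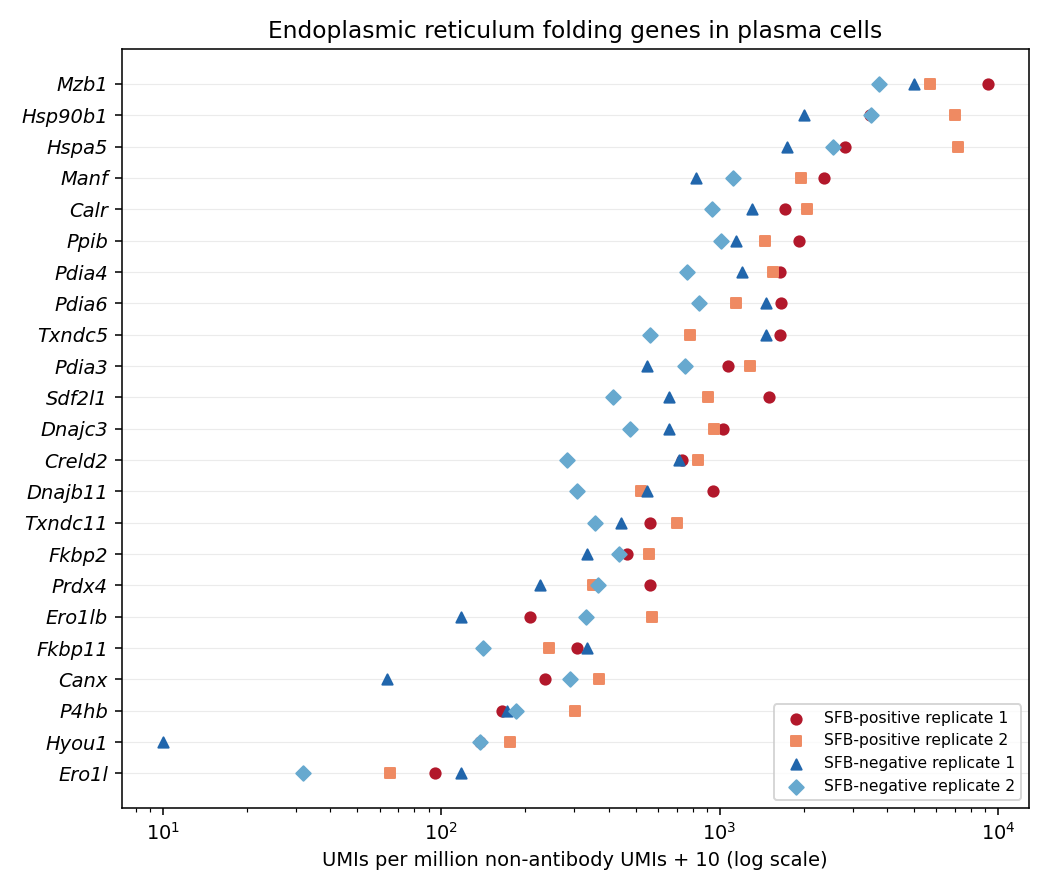
Levels of the 23 endoplasmic reticulum folding genes in plasma cells of each library, as CPM plus 10 on a log axis, ordered by mean level. Both SFB-positive libraries lie right of both SFB-negative ones for Manf, Calr, Sdf2l1 and Dnajc3, whereas Canx, Ero1l and Fkbp11 overlap.

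Some of these genes share a promoter motif, shown here because the unfolded protein response is known to act through it. The endoplasmic reticulum stress element, CCAAT and CCACG separated by 9 bases of any kind, was searched on both strands in the 250 bases before the gene start in RefSeq promoters of GRCm38.p6. It was present in 35 of 27025 promoters (0.130%), in 7 of the 18 folding genes with a promoter entry, and in Derl3 and Syvn1 among 11 degradation genes. The matches are printed 5′ to 3′ on the gene's strand with 20 bases to each side where the promoter window allows. Capitals mark the fixed letters of the motif, which read CGTGG and ATTGG where the match lies on the opposite strand, and Hsp90b1 holds 2 matches.
Hspa5 (BiP, chr2:34772005-34772063, plus strand): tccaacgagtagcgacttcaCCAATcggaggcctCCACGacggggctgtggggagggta
Hsp90b1 (GRP94, chr10:86705513-86705676, minus strand): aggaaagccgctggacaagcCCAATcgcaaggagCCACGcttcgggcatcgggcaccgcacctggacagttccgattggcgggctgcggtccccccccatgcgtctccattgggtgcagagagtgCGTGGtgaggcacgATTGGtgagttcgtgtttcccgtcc
Calr (calreticulin, chr8:84847055-84847113, minus strand): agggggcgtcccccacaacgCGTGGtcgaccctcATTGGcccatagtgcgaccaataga
Canx (calnexin, chr11:50325780-50325838, minus strand): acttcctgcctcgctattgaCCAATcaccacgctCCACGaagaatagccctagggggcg
Pdia6 (a disulfide isomerase, chr12:17266471-17266529, plus strand): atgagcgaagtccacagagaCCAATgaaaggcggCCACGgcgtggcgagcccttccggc
Dnajc3 (a BiP co-chaperone, chr14:118937807-118937865, plus strand): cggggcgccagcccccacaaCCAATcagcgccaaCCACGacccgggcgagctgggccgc
Creld2 (an endoplasmic reticulum stress protein, chr15:88819500-88819558, plus strand): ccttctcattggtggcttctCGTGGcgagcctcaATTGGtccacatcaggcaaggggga
Derl3 (derlin 3, chr10:75893222-75893280, plus strand): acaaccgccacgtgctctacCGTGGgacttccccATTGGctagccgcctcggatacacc
Syvn1 (a ubiquitin ligase of degradation, chr19:6046512-6046570, plus strand): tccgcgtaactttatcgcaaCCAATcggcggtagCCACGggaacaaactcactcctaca
The unfolded protein response element, TGACGTGG, searched likewise on both strands, was found in 163 promoters (0.603%), Txndc5 and Txndc11 among the folding genes. A match describes the letters only. Of the 9 genes with the first motif, Hsp90b1, Canx, Pdia6, Derl3 and Syvn1 had overlapping levels between the groups. Derl3 had 552 and 587 CPM in SFB-positive and 702 and 246 in SFB-negative libraries. Hspa5, Calr, Dnajc3 and Creld2 did not overlap. Creld2 had 721 and 827 in SFB-positive and 702 and 272 in SFB-negative libraries. That gap is narrow, as SFB-negative replicate 1 held only 13 Creld2 UMIs. The share of all genes without overlap was not counted, and the part of the motif was not tested.

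Whether a gene passed between the groups depended on a term for the replicate number. UMIs were summed over the plasma cells of each library, and in edgeR's quasi-likelihood test with Benjamini-Hochberg adjustment and no such term 0 of 2547 genes were called (0%), 11 had an unadjusted p under 0.05, and DESeq2 called 0 of 13016 with 28 at an unadjusted p under 0.05. The replicate number goes with the Cell Ranger version and the antibody tags, and with it as a block edgeR called 8 genes higher (0.314%) and 6 lower (0.236%), together 0.55%. That fit has 2 pairs of libraries and took its spread almost wholly from other genes. With 2 libraries per group, 1 of them of 6 cells, this does not show that levels were alike. In sums over a cluster, more cells of a class and more RNA per cell cannot be told apart. Ighg2b had an SFB-positive minus SFB-negative log2 difference of 5.28 without the block (SE 1.74, edgeR adjusted p = 1.00) and 6.77 with it (edgeR adjusted p = 8.18e-06). It also passed without SFB-negative replicate 2 (edgeR adjusted p = 7.50e-05), where the remaining SFB-negative library had 0 UMIs and the fitted value is no bound. Prg2 had 2192 and 1482 CPM in SFB-positive and 216 and 298 in SFB-negative libraries, which did not overlap, with a log2 difference of 2.80 without the block (SE 0.77, edgeR adjusted p = 1.00) and 2.61 with it (edgeR adjusted p = 0.00402). IgG cells, which held 1271 of the 1459 Prg2 UMIs, were also the larger share of cells in SFB-positive libraries, and the part of class in this difference was not tested. Genes called lower with the block included Cmss1, Cdk8, Camk1d and Lars2, whose UMIs lay mostly in SFB-negative replicate 2. Cmss1 had 0 and 267 UMIs in SFB-positive and 0 and 945 in SFB-negative replicates 1 and 2. Cdk8 had 2 and 87 against 0 and 633.

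The gene lists are given by their counts and medians beside the median log2 of 0.08 over all 2547 genes tested, of which 1442 had positive values. Of 22 tested folding genes 22 had positive values with a median log2 of 0.76, led by Sdf2l1 (1.30), Hspa5 (1.18) and Manf (1.18), and 0 passed. All 12 tested degradation genes were positive as well (median 0.31), and so were 22 of 25 translocation and glycosylation genes (median 0.48) and 13 of 15 genes of transport to the Golgi (median 0.60). In each of these lists 0 genes passed the limit in edgeR, with or without the block. All 9 tested heat shock genes had positive values, with a median of 0.91. Hspa1a, an inducible cytosolic chaperone, had 25 and 1034 UMIs in SFB-positive and 0 and 28 in SFB-negative libraries and 354 and 1244 against 0 and 123 CPM, and with the block it passed (edgeR adjusted p = 8.18e-06). MHC class II genes had a median of -0.19, with 3 of 8 positive. Ly6c2, a surface antigen among the leading genes, had 424 and 75.8 CPM in SFB-positive and 2431 and 65.8 in SFB-negative libraries, so it was high in the replicate 1 libraries and highest in the 6 cells of SFB-negative replicate 1. The antibody share of all UMIs was 59.9% and 46.3% in SFB-positive and 57.2% and 28.6% in SFB-negative plasma cells (exact permutation p = 0.667).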

How the data were processed

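Single-cell RNA was measured in 4 libraries. The authors deposited UMI counts, whole numbers without normalization, made with Cell Ranger 6.0.0 (replicate 1) and 7.0.0 (replicate 2) per the file headers, whereas the submitters' processing notes name Cell Ranger 5.0.1 and mm10. Replicate 1 files also hold antibody tag counts. The authors' deposited cell table gives cluster numbers, library codes (other), UMI and gene counts, the percentage of mitochondrial UMIs and layout coordinates (a score).

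Cells were matched by library and barcode. Counts were summed per library, and per class and library, and tested with edgeR 4.0.16 (quasi-likelihood, robust, TMM, filterByExpr, adjusted p limit 0.05) in R 4.3.3. DESeq2 1.42.0 was an alternative. Shares were compared by exact two-sided permutation over libraries (scipy 1.17.1). Scripts were tested on simulated data. Depth is given per library with the results, and intervals and floors (3 counts) cover counting error only. Named genes were the markers, constant genes, genes past the limit and the 20 leading genes by mean log2 ratio to other cells. Members and lists were chosen with earlier results of these data known, and the comparison of IgA with IgG cells was added after the data were seen. Alternatives added the replicate number as a block or changed the scaling, the low-count filter, the antibody genes, the class call and the libraries. Promoters are RefSeq sequences of GRCm38.p6.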

Additional observations from a re-analysis of the deposited data

Results flagged for a closer look

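Barcodes outside the authors' table were searched for cells with shares of UMIs at or above the 10th percentile of their library's plasma cells. The shares were those of the heavy- and light-chain constant genes, and of Jchain, Mzb1, Xbp1 and Derl3 together. The constant-gene limit ranged from 2.84% in SFB-negative replicate 2 to 32.6% in SFB-positive replicate 1, so counts are not comparable between libraries. In SFB-positive replicate 2, 4 of 2958 barcodes outside the table passed. Of these, 2 had Igha, 1 Ighg2b and 1 Ighm as the dominant gene. The other libraries held 3 of 623 in SFB-positive replicate 1, and 1 of 545 and 3 of 5190 in SFB-negative replicates 1 and 2. Other table cells passed in 1 of 7312 cases in SFB-positive replicate 2. These barcodes entered no comparison.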

How the results depend on the processing

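With 6 to 68 cells per library and 2 libraries per group, few values are precise. Differences are SFB-positive minus SFB-negative, and the cause of a change was not tested. Leaving out each library in turn, the Ighg2b cell share difference ranged over 36.2 to 42.9 points and its UMI share over 24.5 to 48.3, and the Ighm cell share over -52.9 to -22.9. Ranges that crossed 0 were Igha cells -3.73 to 14.2, Ighg1 cells -20.5 to 2.82, Ighg3 cells -1.67 to 5.69, Ighg1 UMIs -10.6 to 2.22, Ighg3 UMIs -1.0 to 4.18, Ighm UMIs -19.0 to 2.96, the lambda share -8.36 to 12.8 and the antibody share -4.09 to 24.6, whereas Igha UMIs ranged over -47.7 to -3.80. As the mean of the cells' own shares, the Igha UMI difference was 5.61 and the lambda difference -8.73, and lambda was -5.32 after dropping from each library its cell with the highest constant-gene count.

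In the gene test, leaving out each library gave 0 to 1 higher and 0 to 12 lower genes, and no filter gave 3 lower. Log2 ranges that crossed 0 were Jchain -0.51 to 1.65, Slpi -0.77 to 3.77, Derl3 -0.14 to 1.17, Xbp1 -0.37 to 1.15, Igha -1.73 to 2.13, Ighg1 -0.77 to 4.92, Ighm -0.50 to 0.90 and Ighg3 -9.40 to 13.68. Igha was 0.31 without the deepest cell of each library. With the replicate number as a block, 8 genes were higher and 6 lower, or 11 and 15 without antibody genes, and Igha was 0.0060. Same-numbered libraries deviated together (correlation 0.651 over 2547 genes), and 2 pairs cannot show that the numbers pair the samples. Ighg2b (6.77) and Prg2 (2.61) passed with the block, and Ighg2b passed without SFB-negative replicate 2.

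Between IgA and IgG cells, leaving out each library gave 0 to 20 higher and 0 to 19 lower genes, and the stricter class call gave 9 lower.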
